A study of Mus musculus with 6 samples.

Results

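The TREM receptors (triggering receptors expressed on myeloid cells) and their shared adaptor were followed through the leukocytes of the injured mouse kidney. The 5 genes were Trem1, Trem2, Trem3, Treml4 and Tyrobp, found by symbol among the 32285 genes counted, and each matched 1 gene. Rhabdomyolysis, the breakdown of skeletal muscle, can cause acute kidney injury, and 3 libraries (rhabdomyolysis replicates 1 to 3) came from mice with that injury. The other 3 libraries (control replicates 1 to 3) came from control mice. All mice were C57BL/6J and 8 weeks old, with no transgene or deletion named in the labels, and how the muscle injury was induced was not given in the sources used here. Live CD45-positive cells, that is leukocytes, were sorted from dissociated kidneys and profiled by droplet 3' single-cell RNA sequencing with unique molecular identifiers (UMIs). Whether each library is a separate animal is not stated, and a p-value here may therefore reflect technical spread alone.

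TREM receptors are single-pass membrane proteins of the immunoglobulin superfamily with a short cytoplasmic tail that carries no signal of its own. They pair in the membrane with Tyrobp, also called DAP12, whose cytoplasmic activation motif recruits the kinase Syk once the receptor is engaged. Trem1 is known as an amplifier of inflammatory cytokine output in neutrophils and monocytes. Trem2 is known as a receptor for lipids and apolipoproteins on macrophages and microglia. Trem3 is a mouse activating receptor that is a pseudogene in human, and Treml4 is known from mouse nonclassical monocytes and some dendritic cells.

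The 4 receptor genes lie close together on mouse chromosome 17 and Tyrobp lies on chromosome 7, by RefSeq positions on GRCm38.p6, the patched form of the mm10 build that the submitters' processing notes name. Trem1 (ENSMUSG00000042265) spans chr17:48232713-48246927, Trem3 (ENSMUSG00000041754) spans chr17:48247677-48258848 and Treml4 (ENSMUSG00000051682) spans chr17:48264200-48275607. Trem2 (ENSMUSG00000023992) stands further along at chr17:48346401-48352276. Tyrobp (ENSMUSG00000030579) spans chr7:30413782-30417582, next to Hcst at chr7:30417712-30419854, which encodes a second membrane adaptor, DAP10. All 5 members are annotated as protein-coding.

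The bases just before the annotated start of 3 receptor genes are shown because these neighbours behaved unlike each other in the same cells. They are from RefSeq on the + strand of GRCm38.p6, and capitals mark matches to 3 searched motifs. The Trem1 stretch is chr17:48232489-48232712, that of Treml4 is chr17:48264045-48264199 and that of Trem2 is chr17:48346151-48346400.
Trem1: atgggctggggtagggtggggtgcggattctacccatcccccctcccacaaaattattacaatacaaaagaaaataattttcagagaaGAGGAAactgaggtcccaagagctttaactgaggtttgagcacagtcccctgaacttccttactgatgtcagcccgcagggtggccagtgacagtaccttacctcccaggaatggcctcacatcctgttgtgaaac
Treml4: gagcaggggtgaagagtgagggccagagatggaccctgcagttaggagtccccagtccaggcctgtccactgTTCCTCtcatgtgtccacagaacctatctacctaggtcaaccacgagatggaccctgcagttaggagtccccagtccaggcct
Trem2: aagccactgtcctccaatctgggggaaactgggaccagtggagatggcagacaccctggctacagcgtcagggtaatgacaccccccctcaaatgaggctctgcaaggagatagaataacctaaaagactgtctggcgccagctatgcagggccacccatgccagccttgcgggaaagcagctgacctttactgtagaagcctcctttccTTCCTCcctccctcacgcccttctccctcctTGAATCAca

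The motifs were the core GAGGAA bound by the myeloid factor PU.1, the AP-1 motif TGANTCA and the longer kappa B motif, each read on both strands, and no match of one overlapped another. A PU.1 core stood 136 bases before the gene start in Trem1, 83 bases before it in Treml4 and 40 bases before it in Trem2, on the opposite strand (TTCCTC) in Treml4 and Trem2. A further one lay 8 bases inside Treml4. The AP-1 motif was present only in the Trem2 window of these 3, 9 bases before the gene start, and the kappa B motif matched none of the 3. The AP-1 match reads TGAATCA, with A at the centre position N, where the search allowed any base. Among 32851 promoter windows of 300 bases, 28.3% held the PU.1 core, 7.81% the AP-1 motif and 1.63% the kappa B motif, so a PU.1 core is common. Such a match is a description of letters, and its use in these cells was not tested.

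Depth was 10816727, 15928192 and 22656666 gene UMIs in rhabdomyolysis replicates 1 to 3 and 19427318, 17045151 and 16666253 in control replicates 1 to 3. After filters on depth, gene number, mitochondrial share and Malat1, 13296 barcodes were kept as cells, and 8590 of them carried significant UMIs of 1 class of marker genes. Malat1, an abundant nuclear RNA, was too low in 66.9% to 75.5% of barcodes of adequate depth in rhabdomyolysis libraries and in 28.1% to 54.5% in control libraries, and these barcodes were left out. The classes were macrophages (227, 239 and 266 cells in rhabdomyolysis, 1263, 949 and 647 in control), monocytes (169, 220 and 291 against 21, 21 and 13), dendritic cells (12, 19 and 32 against 115, 108 and 76) and neutrophils (62, 95 and 87 against 11, 10 and 9). NK cells numbered 22, 10 and 97 in rhabdomyolysis and 112, 76 and 57 in control libraries. T cells ranged from 77 to 128 in rhabdomyolysis and from 546 to 667 in control libraries, and B cells, which should lack TREM receptors and serve as a check for free RNA, from 44 to 94 and from 248 to 445. Of macrophage markers that took no part in the gating, Adgre1 stood at 156 CPM in the pooled macrophages of rhabdomyolysis and 545 CPM in those of control libraries, against at most 50.4 and 70.5 CPM in any other class. Cd68 separated macrophages from monocytes less: macrophages held 466 CPM and monocytes 388 CPM in rhabdomyolysis, and macrophages held 636 CPM and monocytes 457 CPM in control libraries. The neutrophil gene S100a8 was at 43009 CPM in rhabdomyolysis and 41736 CPM in control neutrophils, and next highest in rhabdomyolysis monocytes (1492 CPM). Any 2 libraries shared at most 2 barcodes among the gated cells. Levels below are counts per 1000000 UMIs (CPM) of the summed cells of a class in a library, and changes are log2 of rhabdomyolysis over control with a standard error (SE), from the edgeR quasi-likelihood test with Benjamini-Hochberg adjustment over all genes tested in the class.

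Trem1, the inflammatory amplifier, was present in the macrophages of every rhabdomyolysis library and close to absent in control macrophages. Its level in macrophages was 108, 125 and 63.7 CPM in rhabdomyolysis replicates 1 to 3, against 0.190, 0 and 0 CPM in control replicates 1 to 3. The groups were far apart, and all control macrophages together held 1 Trem1 UMI against 516 UMIs in rhabdomyolysis macrophages. The pooled ratio was 1180.1, with a 95% counting interval of 211 to 46699 that covers counting error only, and the test gave an adjusted p of 7.69e-06. In macrophages 40.2% of 9409 genes passed the same test (20% higher and 20.1% lower), so a call by itself sets no gene apart there.

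Free RNA in droplets carried Trem1 too. Barcodes with 100 or fewer UMIs held Trem1 at 85.8, 167 and 77.4 CPM in the rhabdomyolysis libraries and at 4.96, 1.28 and 1.36 CPM in the control libraries, so the macrophage level was near that of the free RNA. S100a8, a neutrophil gene that is more abundant in the same free RNA at 2395, 2993 and 1863 CPM in rhabdomyolysis and 53.8, 124 and 35.4 CPM in control libraries, reached 37.0, 56.1 and 3.08 CPM in rhabdomyolysis macrophages and 0 CPM in each control library. An estimate from genes of other classes put the free RNA share of macrophage UMIs at 12.8%, 22.0% and 12.4% in rhabdomyolysis and 9.80%, 10.8% and 10.3% in control libraries. After that share was subtracted, Trem1 in macrophages still passed the test, with an adjusted p of 6.06e-05.

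In monocytes Trem1 stood at 137, 186 and 97.4 CPM in rhabdomyolysis and at 8.34, 29.0 and 15.6 CPM in control libraries, without overlap. Only control replicates 1 and 2 had enough monocytes for the fit, in which Trem1 was higher by 3.11 ± 0.55 (log2, SE, adjusted p = 0.0025). In monocytes 10.7% of 8403 genes passed, 6.39% higher and 4.27% lower. The control monocytes held 6 Trem1 UMIs in all, and without control replicate 1 the change was 2.52 with an adjusted p of 0.0744.

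Neutrophils, the cells best known for Trem1, had the highest level in both groups, at 1332, 1537 and 1169 CPM in rhabdomyolysis and 908, 461 and 394 CPM in control libraries. The groups did not overlap, but the control sums rest on 9 to 22 Trem1 UMIs. With a minimum of 10 cells, which left control replicate 3 out, the difference was 1.15 ± 0.35 (log2, SE) and missed the threshold (adjusted p = 0.0881), where 4.21% of 1662 genes passed.

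In dendritic cells Trem1 was at 36.1, 119 and 39.3 CPM in rhabdomyolysis libraries and at 0 UMIs in all 3 control libraries. That is at least 72.2-fold higher, measured against a floor of 3 counts over the control group, and it passed the test at the 10-cell minimum (adjusted p = 0.000113, 10.7% of 5423 genes passing). The rhabdomyolysis values rest on 4, 24 and 15 UMIs from 12, 19 and 32 cells, with an estimated free RNA share of 2.27%, 4.34% and 3.84%. S100a8 and S100a9 together were at 0, 0 and 2.62 CPM in those dendritic cells and at 0.719, 92.7 and 0 CPM in control dendritic cells. In T and NK cells of rhabdomyolysis libraries Trem1 did not exceed 33.2 CPM and 14.7 CPM, and B cells reached 39.9 CPM, each on at most 11 UMIs.

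**Figure D1:**
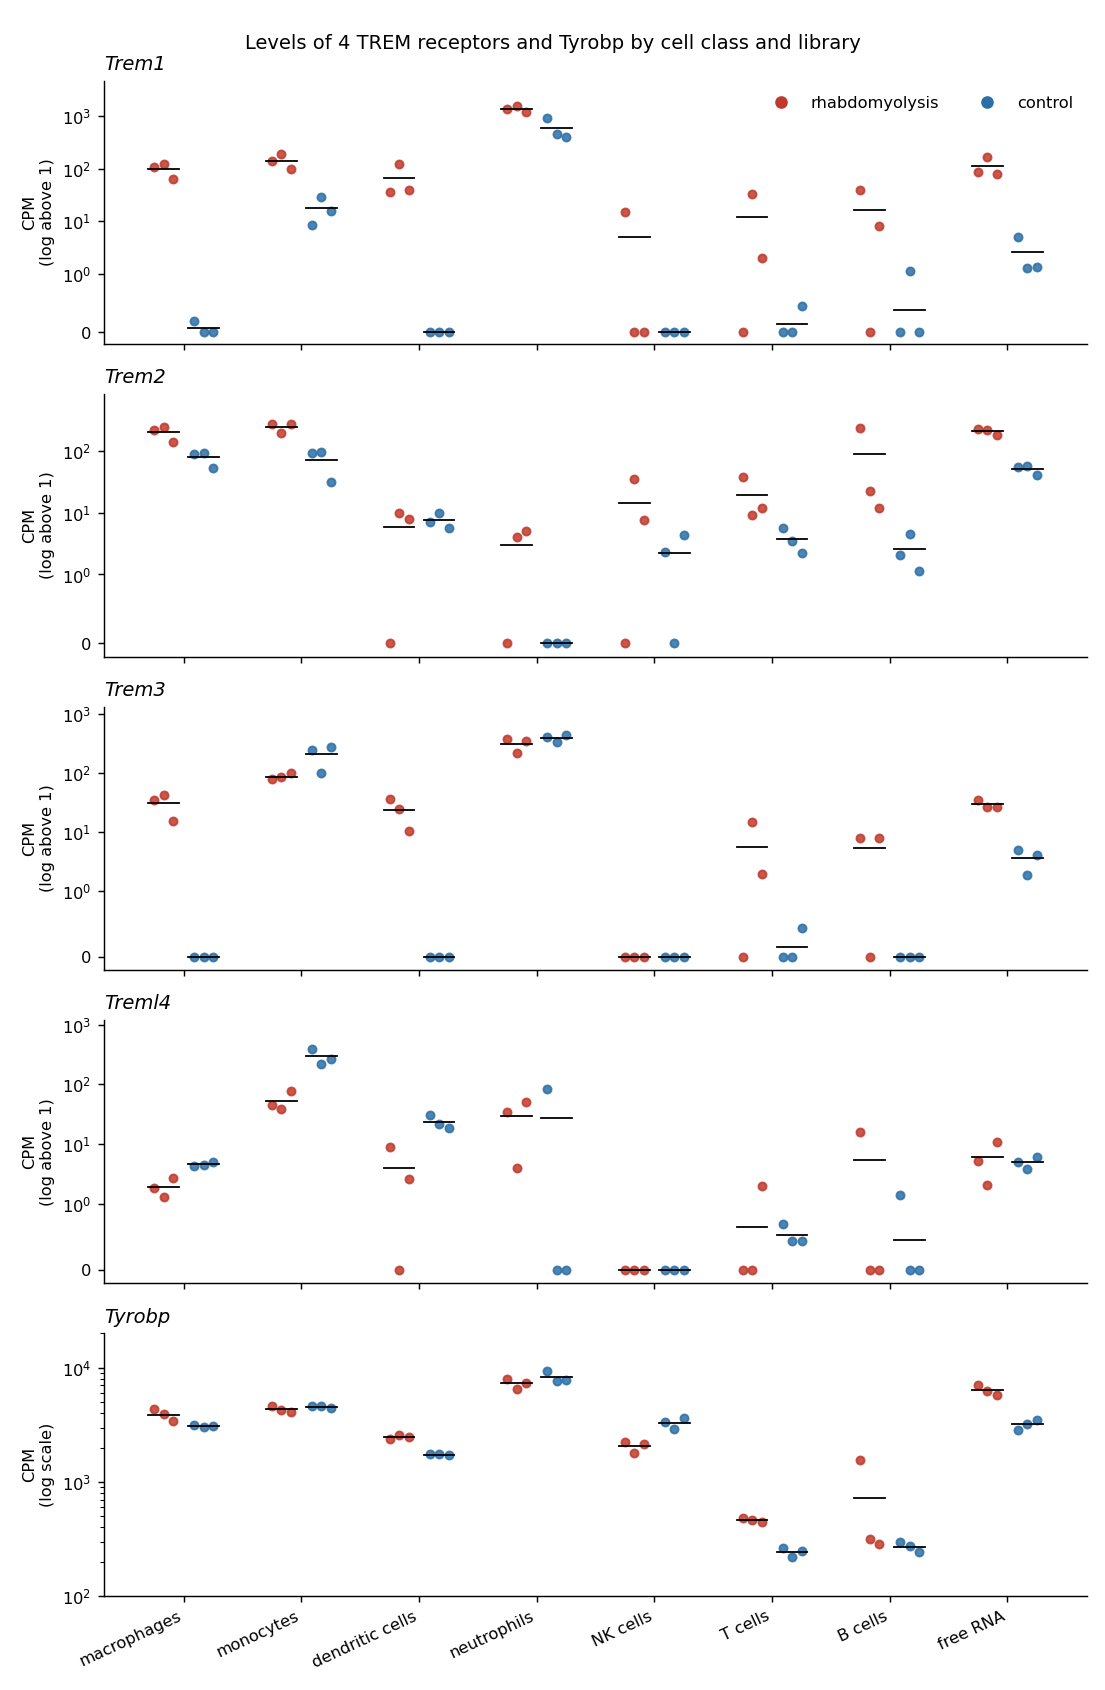
Level of each gene in CPM (vertical axis, log scale above 1, linear below it; log scale throughout for Tyrobp) in 7 gated cell classes and in free RNA (horizontal axis), with 1 point per library, rhabdomyolysis in red at the left of control in blue, and a bar at the mean of 3 libraries. Trem1 and Trem3 lie between 15.8 and 125 in rhabdomyolysis macrophages and at or near 0 in control macrophages, while Trem1 is highest in neutrophils of both groups.

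Trem3, the mouse neighbour of Trem1, was highest in neutrophils, and there it did not differ between groups beyond the spread. Its level in neutrophils was 378, 217 and 346 CPM in rhabdomyolysis and 413, 335 and 438 CPM in control libraries, with overlap and a change of -0.10 ± 0.44 (log2, SE, adjusted p = 0.946). In macrophages it was 34.6, 42.6 and 15.8 CPM in rhabdomyolysis libraries, against no UMI in any control library. Against a floor of 3 counts over the control macrophages that is at least 121-fold higher (159 UMIs, adjusted p = 0.000253), and the call was kept after free RNA was subtracted (adjusted p = 0.00046). The free RNA held Trem3 at 35.9, 27.1 and 27.3 CPM in rhabdomyolysis and at 4.96, 1.92 and 4.08 CPM in control libraries.

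In all monocytes together the order was the other way round. Most rhabdomyolysis monocytes were classical and most control ones nonclassical. Within nonclassical monocytes the groups overlapped in Trem3, as given below, and the part of the subtypes was not tested. Trem3 stood at 78.5, 86.0 and 99.6 CPM in rhabdomyolysis monocytes and at 250.3, 102 and 281 CPM in control monocytes, with the lowest control library just above the highest rhabdomyolysis one. The difference in the fit, -0.70 ± 0.31 (log2, SE), missed the threshold (adjusted p = 0.182), and it was 0.05 without control replicate 1. Dendritic cells held 4, 5 and 4 Trem3 UMIs in rhabdomyolysis and none in control libraries, too few for the filter on low counts.

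Trem2, the lipid receptor, was a gene of macrophages and monocytes in both groups and was higher in rhabdomyolysis in each. Macrophages held it at 220.4, 246 and 137 CPM in rhabdomyolysis and at 89.0, 93.5 and 52.4 CPM in control libraries. Every rhabdomyolysis library was above every control library, and the change was 1.42 ± 0.27 (log2, SE, adjusted p = 0.00317). With free RNA subtracted it was 1.36 (adjusted p = 0.00554). Replicate 3 was the lowest of its group in both conditions.

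Monocytes held Trem2 at 268, 195 and 276 CPM in rhabdomyolysis and at 91.8, 94.3 and 31.2 CPM in control libraries, again without overlap. The change over 3 rhabdomyolysis and 2 control libraries was 1.67 ± 0.29 (log2, SE, adjusted p = 0.00238), and without control replicate 1 it was 1.64 with an adjusted p of 0.0559. Within rhabdomyolysis libraries, monocytes and macrophages overlapped in Trem2, and so they did in control libraries.

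Outside these classes Trem2 was scarce. Dendritic cells ranged from 0 to 9.95 CPM in rhabdomyolysis and from 5.75 to 9.76 CPM in control libraries, and neutrophils held 2 Trem2 UMIs in all. Free RNA held Trem2 at 229, 216 and 178 CPM in rhabdomyolysis and 53.8, 57.1 and 40.1 CPM in control libraries, at about the level of the macrophages themselves. T cells had 37.4, 9.06 and 11.7 CPM in rhabdomyolysis against 5.56, 3.54 and 2.20 CPM in control libraries and passed the test (2.22 ± 0.58, log2, SE, adjusted p = 0.0264, where 8.75% of 8190 genes passed), on 17 and 29 UMIs. After the estimated free RNA was subtracted too few UMIs were left in T cells to test, and B cells of rhabdomyolysis replicate 1, with an estimated free RNA share of 39.8%, reached 231 CPM, so the T cell value is not set apart from free RNA.

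Treml4 marked monocytes, and it was lower in all rhabdomyolysis monocytes together than in all control monocytes together. Most of the former were classical and most of the latter nonclassical. Within each of these subtypes the groups overlapped in Treml4, as given below, and the part of the subtypes was not tested. It stood at 45.2, 37.8 and 75.8 CPM in rhabdomyolysis and at 392.1, 218 and 265 CPM in control monocytes, with a wide gap between the groups. The change was -2.23 ± 0.33 (log2, SE, adjusted p = 0.000556), with 94 UMIs behind the 3 control values, and -1.77 with an adjusted p of 0.0609 without control replicate 1. In dendritic cells it was 9.03, 0 and 2.62 CPM in rhabdomyolysis, from 2 UMIs in all, against 30.2, 21.1 and 18.4 CPM in control libraries (-2.97 ± 0.74, log2, SE, adjusted p = 0.0165 at the 10-cell minimum). In macrophages Treml4 was near the bottom of its range, at 1.82, 1.29 and 2.64 CPM in rhabdomyolysis and 4.18, 4.49 and 4.93 CPM in control libraries. The macrophage groups did not overlap and the fit called it lower (-1.10 ± 0.39, log2, SE, adjusted p = 0.0457), but 11 rhabdomyolysis UMIs carried the value and 10 of 12 alternative settings lost the call. NK cells held no Treml4 UMI in any library.

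Tyrobp, the adaptor with which these receptors pair, was abundant in every myeloid class, and in macrophages and monocytes its differences between groups were small beside those of Trem1 and Trem2. Macrophages held it at 4336, 3956 and 3394 CPM in rhabdomyolysis and 3139, 3025 and 3079 CPM in control libraries. All rhabdomyolysis values were above all control values, yet the change of 0.40 ± 0.15 (log2, SE) missed the threshold (adjusted p = 0.0601) and was 0.22 (adjusted p = 0.288) with free RNA subtracted. Free RNA was itself rich in Tyrobp, at 7076, 6300 and 5774 CPM in rhabdomyolysis and 2847, 3235 and 3489 CPM in control libraries.

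Monocytes overlapped in Tyrobp, at 4601, 4273 and 4099.8 CPM in rhabdomyolysis and 4622, 4626 and 4478 CPM in control libraries (0.17 ± 0.15, log2, SE, adjusted p = 0.51). This value changed sign with library totals as the scaling (-0.10). Neutrophils, with the highest Tyrobp level, overlapped as well, at 8019.5, 6524 and 7335 CPM in rhabdomyolysis and 9328, 7704 and 7751 CPM in control libraries (-0.05 ± 0.23, log2, SE, adjusted p = 0.953). Dendritic cells did not overlap: Tyrobp was 2394, 2572 and 2494 CPM in rhabdomyolysis and 1744, 1755 and 1724 CPM in control libraries, higher by 0.53 ± 0.12 (log2, SE, adjusted p = 0.00799) at the 10-cell minimum. No fit with free RNA subtracted was made for dendritic cells.

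NK cells, where Tyrobp couples to activating receptors of the Klra and Klrc families in place of TREM receptors, had the lower values in rhabdomyolysis, with 2225, 1785 and 2164 CPM against 3337, 2905 and 3606 CPM in control libraries. The groups did not overlap, and the fit over 2 rhabdomyolysis and 3 control libraries gave -0.43 ± 0.16 (log2, SE), which missed the threshold (adjusted p = 0.11, where 6.27% of 4227 genes passed). Library totals as the scaling, which move the median of all NK genes from -0.02 to -0.23 on the log2 scale, gave -0.61 with an adjusted p of 0.00696. The difference between the change in macrophages and that in NK cells was 0.69 ± 0.33 (log2, SE) with an adjusted p of 0.233 over 5 libraries, where 6.38% of 8944 genes passed. It was 0.88 with an adjusted p of 0.00225 under library totals, and 1.13 with an adjusted p of 0.0235 over all 6 libraries at the 10-cell minimum, so its call rests on these choices.

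T cells are low in Tyrobp, and their values were 482, 468 and 444 CPM in rhabdomyolysis and 263, 221 and 248 CPM in control libraries. The change of 1.11 ± 0.14 (log2, SE) passed the test (adjusted p = 0.000164), but with the free RNA subtracted Tyrobp no longer passed the filter on low counts. B cells showed 1555, 320.1 and 287 CPM in rhabdomyolysis and 296, 276 and 243 CPM in control libraries, and no call (1.39 ± 0.49, log2, SE, adjusted p = 0.198, where 1.6% of 5328 genes passed). Without rhabdomyolysis replicate 1 the B cell difference was 0.20.

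**Figure D2:**
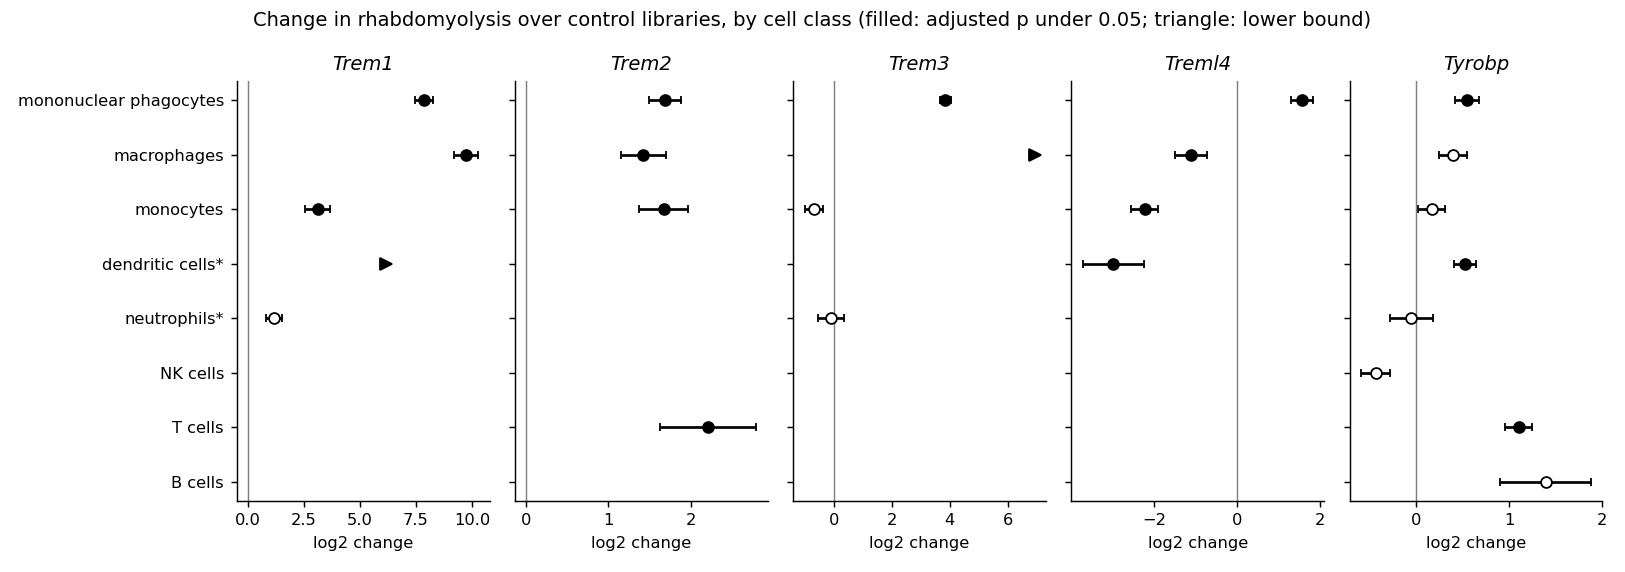
Change of each gene on the log2 scale, rhabdomyolysis over control (horizontal axis), in each class in which it could be tested (rows), as the fitted value with its standard error; filled circles passed an adjusted p of 0.05, triangles are lower bounds where no control library held a UMI, and * marks classes tested with 10 cells as the minimum. Trem1 was higher in macrophages and monocytes, Treml4 was lower in monocytes (-2.23), and Tyrobp lay between -0.43 in NK cells and 1.39 in B cells.

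The order of the classes by mean level differed between the receptors. For Trem1 it was neutrophils (1346 ± 184 CPM, SD, n = 3), monocytes (140.2 ± 44.4 CPM), macrophages (98.8 ± 31.4 CPM) and dendritic cells (65.0 ± 47.2 CPM) in rhabdomyolysis libraries, of which neutrophils stood clear and the other neighbours overlapped. In control libraries it was neutrophils (588 ± 279.5 CPM), then monocytes (17.6 ± 10.5 CPM), and every further class lay under 1 CPM. For Trem2 monocytes (246 ± 44.5 CPM) and macrophages (201 ± 57.1 CPM) overlapped at the top in rhabdomyolysis, as did macrophages (78.3 ± 22.5 CPM) and monocytes (72.4 ± 35.7 CPM) in control libraries. For Trem3 neutrophils (314 ± 85.4 CPM), monocytes (88.0 ± 10.7 CPM) and macrophages (31.0 ± 13.7 CPM) came in this order in rhabdomyolysis libraries, each clear of the one before it, and dendritic cells (23.8 ± 12.9 CPM) overlapped macrophages. In control libraries neutrophils (395 ± 53.7 CPM) and monocytes (211 ± 95.9 CPM) were clear of each other for Trem3, and macrophages were at 0.

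For Treml4 monocytes were first in both groups, at 52.9 ± 20.2 CPM in rhabdomyolysis (SD, n = 3), where neutrophils at 29.7 ± 23.8 CPM overlapped them, and at 292 ± 90.3 CPM in control libraries, clear of all others. For Tyrobp the rhabdomyolysis order was neutrophils (7293 ± 749 CPM), monocytes (4325 ± 255 CPM), macrophages (3895 ± 474 CPM), dendritic cells (2487 ± 89.2 CPM) and NK cells (2058 ± 239 CPM), and monocytes and macrophages were the only neighbours of these to overlap. In control libraries NK cells (3283 ± 353 CPM) stood above macrophages (3081 ± 57.5 CPM), with overlap. Lymphocytes of the B and T classes came last for Tyrobp in both groups.

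Within the rhabdomyolysis libraries monocytes and macrophages were also compared in the same library, where 25.2% of 8347 genes passed. Monocytes were higher than macrophages in Treml4 by 4.80 ± 0.25 (log2, SE, adjusted p = 8.5e-06), in Trem3 by 1.63 ± 0.29 (adjusted p = 0.00447) and in Trem1 by 0.55 ± 0.13 (adjusted p = 0.0156). The Trem1 call was lost with DESeq2 (adjusted p = 0.0881), without rhabdomyolysis replicate 1 (adjusted p = 0.072) and without rhabdomyolysis replicate 3 (adjusted p = 0.0832). Trem2 (0.36 ± 0.23, adjusted p = 0.301) and Tyrobp (0.20 ± 0.10, adjusted p = 0.19) did not pass. Classical and nonclassical monocytes differ in these receptors, and their proportions differed between the groups: 148, 200 and 245 classical against 10, 14 and 34 nonclassical cells in rhabdomyolysis libraries, and 5, 6 and 2 classical against 13, 13 and 10 nonclassical cells in control libraries. Too few control cells of either subtype were present for a test, and the values below are a description.

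In classical monocytes Trem1 was at 138, 188 and 99.9 CPM in rhabdomyolysis and at 0, 18.0 and 0 CPM in control libraries, which held 1 Trem1 UMI between them. Trem2 in the same cells was 271, 205 and 293 CPM in rhabdomyolysis and 84.8, 162 and 56.3 CPM in control libraries, also without overlap. Treml4 in classical monocytes was 28.1 ± 8.24 CPM in rhabdomyolysis and 18.8 ± 32.6 CPM in control libraries (SD, n = 3), where it rested on 2 UMIs. Unlike in all monocytes together, the groups overlapped in Treml4 among the classical ones.

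Nonclassical monocytes had the higher levels of Treml4 in both groups. Treml4 was 336, 220.4 and 388 CPM in rhabdomyolysis and 649, 408 and 348 CPM in control nonclassical monocytes, with overlap. Trem3 was 84.1, 130.3 and 196 CPM in rhabdomyolysis and 399.7, 175 and 428 CPM in control nonclassical monocytes, again with overlap. In rhabdomyolysis replicate 1 the Trem3 value came from 10 cells and lay near the 78.5 CPM of all its monocytes. Trem1 in these cells was 84.1, 200.4 and 69.8 CPM in rhabdomyolysis and 16.7, 43.7 and 26.8 CPM in control libraries, without overlap but on 5 control UMIs. Beside these values, S100a8 and S100a9, both neutrophil genes that classical monocytes also express, summed to 1463 to 2594 CPM in rhabdomyolysis monocytes and to 0 in control monocytes, and their part in the results was not tested.

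**Figure D3:**
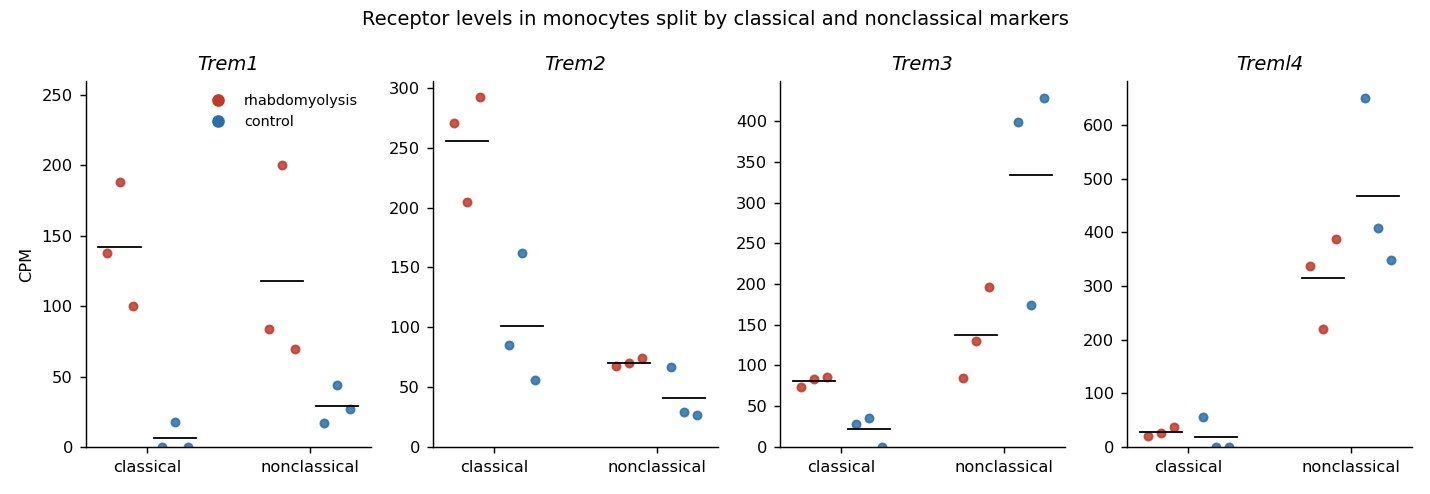
Level of the 4 receptors in CPM (vertical axis, linear) in classical and nonclassical monocytes (horizontal axis), with 1 point per library, rhabdomyolysis in red at the left of control in blue, and a bar at the mean of 3 libraries. Treml4 is high in nonclassical monocytes of both groups (220.4 to 388 in rhabdomyolysis, 348 to 649 in control) and low in classical ones, and Trem1 lies above the control libraries in both subtypes of the rhabdomyolysis libraries.

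Counting cells in place of UMIs gave the same directions for Trem1 and Trem2. Because rhabdomyolysis macrophages were deeper (median 5967 to 7430 UMIs per cell) than control macrophages (3770 to 4506), each cell was thinned to 1000 UMIs. In macrophages 8.44%, 9.65% and 10.5% of thinned rhabdomyolysis cells held a Trem1 UMI (19 of 225, 22 of 228 and 27 of 256), against none of 1243, 918 and 632 control cells, which allows up to 0.241%, 0.327% and 0.475% of control cells with a Trem1 UMI at this depth and sets no limit on cells that express the gene. B cells gave a background of 1.55% ± 2.69 in rhabdomyolysis (SD, n = 3) and 0% in control libraries, at median depths of 1938 to 2576 and 2988 to 3208 UMIs before thinning.

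Trem2 was found in 12.9% ± 3.44 of rhabdomyolysis and 7.07% ± 1.30 of control macrophages (SD, n = 3), over B cell backgrounds of 0.745% and 0.258%. Without thinning the macrophage shares were 40.4% and 0.0264% for Trem1 and 46.3% and 19.5% for Trem2, in rhabdomyolysis and control. In thinned monocytes Trem1 was found in 12.8% ± 3.30 of rhabdomyolysis and 1.59% ± 2.75 of control cells, and Trem2 in 16.9% ± 3.22 and 7.79% ± 2.63. For these 4 shares the two-sided exact permutation test gave p = 0.1, the smallest that 3 against 3 libraries allow, so no share can pass 0.05.

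Neutrophils with a Trem1 UMI were 68.3% ± 8.70 of thinned rhabdomyolysis and 55.7% ± 14.99 of thinned control neutrophils (SD, n = 3), which overlapped (exact permutation p = 0.3). Treml4 was found in 6.16% of rhabdomyolysis monocytes and 29.9% of control monocytes (exact permutation p = 0.1). Tyrobp was found in nearly every macrophage, at 96.5% in rhabdomyolysis and 95.2% in control libraries (exact permutation p = 0.4). Among NK cells it was found in 80.7% ± 0.953 in rhabdomyolysis and 89.0% ± 3.86 in control libraries (exact permutation p = 0.1). Thinned dendritic cells with a Trem1 UMI were 1.75% ± 3.04 in rhabdomyolysis, near the 1.55% ± 2.69 of B cells, and 0% in control libraries. Without thinning the rhabdomyolysis shares were 33.2% ± 21.8 of dendritic cells and 2.22% ± 2.27 of B cells.

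**Figure D4:**
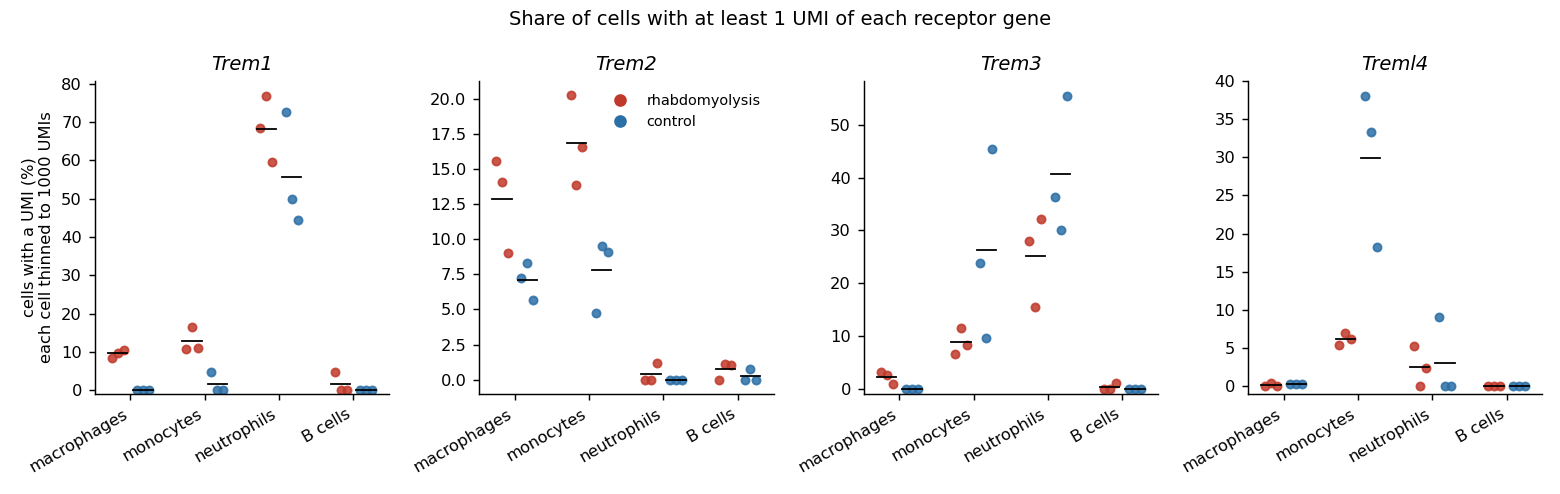
Percentage of cells with at least 1 UMI of each receptor (vertical axis, linear) after thinning each cell to 1000 UMIs, in 4 classes (horizontal axis), with 1 point per library, rhabdomyolysis in red at the left of control in blue, and a bar at the mean of 3 libraries. Trem1 is found in 8.44% to 10.5% of rhabdomyolysis macrophages and in no thinned control macrophage, and Treml4 in more control than rhabdomyolysis monocytes.

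Trem1 and Trem2 were rarely caught in the same thinned cell. Among macrophages and monocytes joined, 7 of 396, 4 of 447 and 4 of 550 thinned cells of the rhabdomyolysis libraries held both, with odds ratios of 1.04, 0.414 and 0.451. In macrophages alone the odds ratios were 0.617, 0.587 and 0.792. Without thinning they were 1.58, 1.79 and 1.41 in the joined class, where replicates 2 and 3 changed side of 1, and 1.48, 2.30 and 1.12 in macrophages, where all 3 did. The direction thus moved with depth, and no pairing or avoidance of the receptors within cells can be read from these counts.

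When macrophages and monocytes were joined as mononuclear phagocytes, all 5 genes were higher in rhabdomyolysis, in a comparison where 54.6% of 10030 genes passed (27.7% higher). The changes (log2, SE) were 7.87 ± 0.39 for Trem1, 3.85 ± 0.20 for Trem3, 1.69 ± 0.20 for Trem2, 1.57 ± 0.26 for Treml4 and 0.55 ± 0.12 for Tyrobp. Treml4 was thus higher in the joined class, at 24.3, 23.5 and 44.7 CPM in rhabdomyolysis against 12.8, 11.6 and 9.97 CPM in control libraries, while it was lower in each of the 2 classes. Monocytes made up 169 to 291 cells of the joined class in rhabdomyolysis and 13 to 21 in control libraries. Over all gated cells the 5 genes were also higher (47.3% of 11375 genes passing, 24.4% higher), with Trem1 at 144, 212 and 97.3 CPM in rhabdomyolysis and 2.07, 1.81 and 1.45 CPM in control libraries. Sums over joined classes also move with the share of each class in a library, and these shares differed between the groups. They do not show a change within a class, and the part of the shares was not tested. Tyrobp over all gated cells was at 4176, 3768 and 3379.7 CPM in rhabdomyolysis and 1932, 1891 and 1790.3 CPM in control libraries.

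Of the other TREM family genes, Treml2 was the only one tested, and it was higher in rhabdomyolysis macrophages, at 6.68 to 13.5 CPM against 1.14 to 2.77 CPM in control macrophages (2.61 ± 0.41, log2, SE, adjusted p = 0.00119). In monocytes it did not pass (2.07 ± 1.16, adjusted p = 0.293). Monocyte values of this and the following lists compare mostly classical rhabdomyolysis cells with mostly nonclassical control cells. The part of the subtypes in them was not tested.

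Among 15 other receptors that couple to Tyrobp, 8 were tested in macrophages, 2 were higher and 2 lower (1 with free RNA subtracted), and their median change was -0.16 (log2) beside -0.05 over all genes. Of all genes tested in macrophages 20% were higher and 20.1% lower. Clec5a, a C-type lectin of myeloid cells, rose to 169 to 312 CPM in rhabdomyolysis macrophages, against 69.3 to 74.0 CPM in control macrophages (1.93 ± 0.24, log2, SE, adjusted p = 0.000351). In monocytes Clec5a was at 177 to 244 CPM in rhabdomyolysis and at 0 and 8.34 CPM in the 2 control libraries tested, from 1 UMI, a pooled ratio of 52.6 with a 95% counting interval of 9.42 to 2077. Signal-regulatory proteins went opposite ways in macrophages, with Sirpb1c higher (3.84 ± 0.46, log2, SE) and Sirpb1a lower (-3.15 ± 0.25). Reads of these near-identical paralogs are hard to tell apart in counting, so their separate values are uncertain. Cd300lb, an activating receptor of the CD300 family, was lower in monocytes (-1.53 ± 0.41, log2, SE), at 19.6 to 24.4 CPM in rhabdomyolysis against 50.8 and 108 CPM in control libraries. Without control replicate 1 that change was -0.92 (adjusted p = 0.425), and with a gate against 0.5 of the free RNA its adjusted p was 0.0561. Klrk1, which encodes NKG2D, was lower in mononuclear phagocytes (-2.40 ± 0.40, log2, SE) at 0.516 to 1.16 CPM in rhabdomyolysis against 4.46 to 6.65 CPM in control libraries. These low Klrk1 levels are not set apart from free RNA here, and the part of class shares in them was not tested. Klrk1 had an adjusted p in 15 alternative settings, against 16 for Sirpb1a in the same class. In monocytes 2 of 8 tested receptors of this list were higher and 3 lower, with a median of -0.58 beside 0.16 over all genes, where 6.39% of genes were higher and 4.27% lower. The count of lower receptors was 0 without control replicate 1 and 1 without control replicate 2, and that of higher ones was 1 without either of these or without rhabdomyolysis replicate 1.

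The adaptors and signalling proteins downstream of Tyrobp showed no common direction. Of 22 tested in macrophages 3 were higher and 6 lower (median -0.27, log2, beside -0.05 over all genes), where 20% of genes were higher and 20.1% lower. The macrophage count of lower genes was 2 without control replicate 2 and 3 without rhabdomyolysis replicate 1 or control replicate 3. In monocytes none of 21 was higher and 2 were lower (median -0.06 beside 0.16, where 4.27% of genes were lower). The lower count there was 0 without control replicate 1 or 2, 1 without rhabdomyolysis replicate 1 and 4 without rhabdomyolysis replicate 2 or 3. Blnk, a linker used by Syk, was lower in macrophages, at 13.5 to 48.8 CPM in rhabdomyolysis against 104 to 135 CPM in control libraries (-1.76 ± 0.33, log2, SE, adjusted p = 0.00272). Card9, which links Syk to NF-kappa B, was higher, at 24.9 to 31.0 CPM in rhabdomyolysis against 14.2 to 15.2 CPM in control macrophages (0.93 ± 0.19, adjusted p = 0.00391), and Pik3r1, a regulatory subunit of PI3 kinase, was higher by 1.05 ± 0.19 (adjusted p = 0.00244). In monocytes Plcg2, a phospholipase that Trem2 signalling uses, was at 29.99 to 47.3 CPM in rhabdomyolysis against 100.1 and 145 CPM in control libraries (-1.42 ± 0.35, log2, SE, adjusted p = 0.0171), a call lost without control replicate 1 (adjusted p = 0.0609) and without control replicate 2 (-1.03, adjusted p = 0.288). The phosphatase Ptpn6 was also lower there (-0.87 ± 0.23, adjusted p = 0.0271), a call lost without rhabdomyolysis replicate 1 (adjusted p = 0.0519), control replicate 1 (-0.59, adjusted p = 0.334) or control replicate 2 (adjusted p = 0.0748). In mononuclear phagocytes the Src-family kinase Fgr was higher by 1.29 ± 0.15. This value of a joined class also moves with the share of monocytes, whose part was not tested.

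Genes associated with Trem2-positive macrophages in other tissues, with Trem2 ligands, were more often higher than lower. Over all genes 20% were higher and 20.1% lower in macrophages, and 6.39% were higher and 4.27% lower in monocytes. In macrophages 7 of 13 tested were higher and 3 lower, with a median change of 0.75 (log2) beside -0.05 over all genes. In monocytes 6 of 15 were higher and 1 lower, with a median of 0.67 beside 0.16, and none was lower without rhabdomyolysis replicate 1 or without either control replicate. Spp1, the secreted glycoprotein osteopontin, was at 165 to 1435 CPM in rhabdomyolysis macrophages and at 9.47 to 14.3 CPM in control macrophages (6.35 ± 0.74, log2, SE, adjusted p = 0.000289). In monocytes Spp1 was at least 323-fold higher, with 27154 UMIs in rhabdomyolysis libraries and none in the 2 control libraries tested. Ms4a6d, a membrane protein of the Ms4a family, was at 476 to 738 CPM in rhabdomyolysis against 57.2 to 79.8 CPM in control macrophages (3.14 ± 0.24, log2, SE). Cd63, of lysosomes, was at 166 to 297 CPM in rhabdomyolysis monocytes against 0 and 14.5 CPM in control ones, a pooled ratio of 28.7 with a 95% counting interval of 7.94 to 238 from 2 control UMIs. Lpl, lipoprotein lipase, was lower in macrophages, at 7.74 to 153 CPM in rhabdomyolysis against 300.0 to 342 CPM in control libraries (-2.14 ± 0.64, log2, SE, adjusted p = 0.0251), a call lost in 6 alternative settings. In mononuclear phagocytes Ms4a4a was higher by 4.08 ± 0.48 (log2, SE), and Gpnmb, a lysosomal glycoprotein, was at 6.97 to 23.5 CPM in rhabdomyolysis against 1 UMI in control libraries, a ratio of 185 with a 95% counting interval of 32.8 to 7356. Both values of this joined class also move with the share of monocytes, whose part was not tested.

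The list of Trem1 ligands and response genes had the highest median of the 5. The lists were chosen with earlier results of these data known, so this order is a description only. The list of other TREM family genes held 1 tested gene. In macrophages 9 of 11 tested were higher and none lower, with a median of 3.94 (log2) beside -0.05 over all genes. Of all genes tested there 20% were higher and 20.1% lower. In monocytes 7 of 12 were higher and 1 lower, with a median of 2.20 when the 2 genes at 0 in control libraries are set to their bounds, beside 0.16 over all genes, where 6.39% of genes were higher. That count of higher genes was 3 without control replicate 1, 4 without control replicate 2 and 7 to 9 without 1 rhabdomyolysis library. Cxcl2, a neutrophil-attracting chemokine, was at 2619 to 8300 CPM in rhabdomyolysis macrophages against 47.1 to 128 CPM in control ones (5.87 ± 0.54, log2, SE, adjusted p = 8.3e-05), and was higher by 5.25 ± 0.34 in monocytes. Il1rn, the interleukin 1 receptor antagonist, was at 14.8 to 38.2 CPM in rhabdomyolysis against 0.249 to 0.616 CPM in control macrophages (6.02 ± 0.51, log2, SE). Il1a, an alarmin cytokine, was at 5.16 to 23.7 CPM in rhabdomyolysis macrophages against 1 UMI in control ones, a ratio of 220 with a 95% counting interval of 38.5 to 8761. In monocytes Il1a and the chemokine Cxcl1 were at least 2.15-fold and at least 2.94-fold higher, with no UMI in the 2 control libraries tested, and both calls were lost without control replicate 1 or 2. The exception was Pglyrp1, a peptidoglycan recognition protein that is a Trem1 ligand, which was lower in monocytes (-3.51 ± 0.26, log2, SE). That fit compares mostly classical rhabdomyolysis monocytes with mostly nonclassical control ones, and the part of the subtypes was not tested. These counts are RNA levels and do not measure receptor signalling.

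In T cells, where 5.09% of all genes were higher and 3.66% lower, the same lists held calls as well. Of 7 tested Trem1 ligand and response genes 4 were higher and none lower (median 1.30, log2, beside -0.02 over all genes), with 1 of 5 still higher when the estimated free RNA was subtracted. Of 13 Trem2-associated genes and ligands 3 were higher and 1 lower (2 lower without rhabdomyolysis replicate 2 or 3), and 1 was higher after that subtraction. Treml2 was higher in T cells (2.26 ± 0.34, log2, SE, adjusted p = 0.00064). Of the adaptors and signalling genes 2 of 16 were higher and 2 lower in T cells, counts that ranged from 1 to 2 and from 0 to 2 with single libraries left out.

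In NK cells, where 3.81% of all genes were higher and 2.46% lower, 1 of 15 adaptors and signalling genes and 1 of 4 Trem1 ligand and response genes were higher. The call among the adaptors was lost with free RNA subtracted and without rhabdomyolysis replicate 3 or any 1 control library. Of 8 Trem2-associated genes and ligands 2 were lower in NK cells, a count that ranged from 0 to 3 with single libraries left out and was 0 with free RNA subtracted. None of 5 other Tyrobp-coupled receptors passed in either direction.

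**Figure D5:**
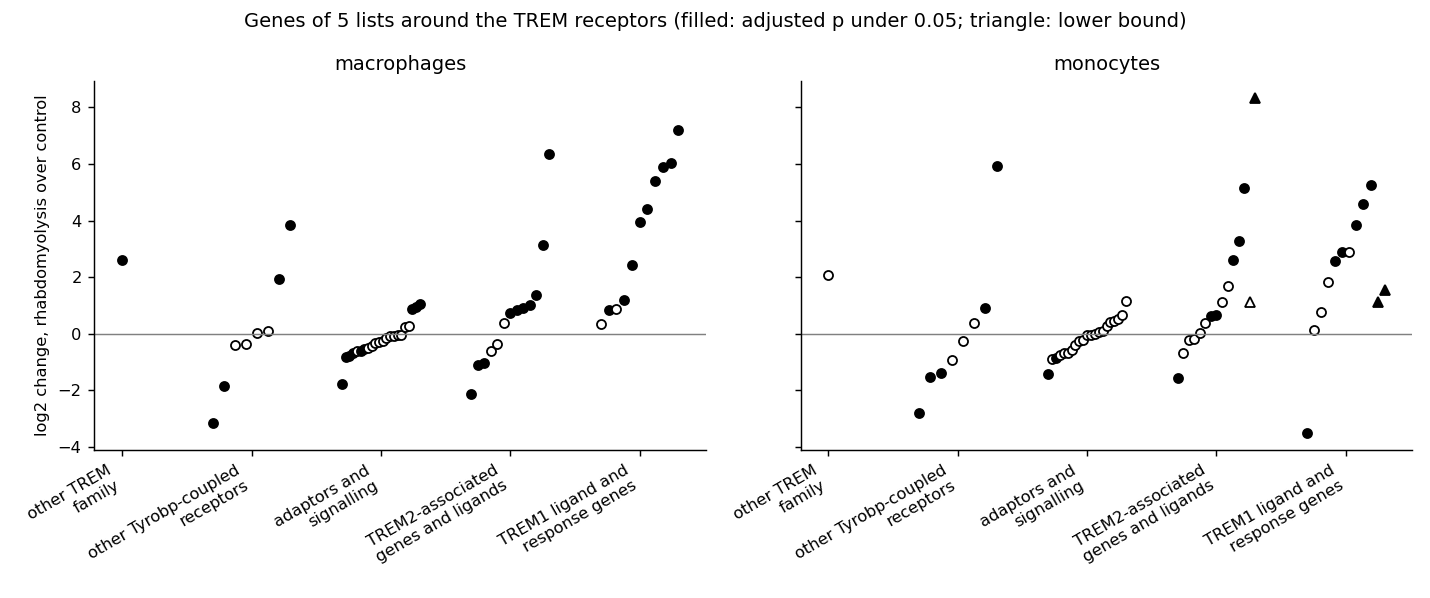
Change on the log2 scale, rhabdomyolysis over control (vertical axis), of each tested gene of 5 lists (horizontal axis) in macrophages and monocytes, with filled symbols for an adjusted p under 0.05 and triangles for lower bounds. The Trem1 ligand and response genes have medians of 3.94 in macrophages and 2.20 in monocytes, and the adaptors and signalling genes lie around 0.

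Across the 35 sums of a class in a library, each member was compared with 10877 genes by Pearson correlation of log2(CPM + 1). These sums share libraries and cell classes, and the values are descriptions. Trem1 was most like Clec4e (r = 0.968), Slc7a11 (r = 0.958) and Clec4d (r = 0.924), of which Clec4e and Clec4d encode C-type lectins and Slc7a11 a cystine transporter. Trem2 was most like the scavenger receptor gene Msr1 (r = 0.907), the lysosomal membrane gene Lamp1 (r = 0.876) and Ms4a6d (r = 0.871). Trem3 was most like Msrb1 (r = 0.960), Clec4e (r = 0.934) and Gda (r = 0.931). Treml4 was most like AI839979 (r = 0.900), Gm9733 (r = 0.888) and Gpx1 (r = 0.864). Tyrobp was most like Fcer1g (r = 0.966), which encodes the other activation-motif adaptor of myeloid cells, followed by Itgam (r = 0.914) and Cd9 (r = 0.914). Among the members Trem1 and Trem3 were most alike (r = 0.917), and Trem1 and Trem2 least (r = 0.278).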

How the data were processed

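The deposited values are raw counts of UMIs per gene and barcode, written by Cell Ranger (software version 4, per the file headers) and aligned to mm10, per the submitters' processing notes. They are not normalized and not filtered for cells. The members and lists were chosen with earlier results of these data known. The 6 antibody tags were not used.

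Barcodes needed at least 500 gene UMIs, 200 genes, at most 15% mitochondrial UMIs and Malat1 at 0.1% of UMIs or more. A barcode joined a class when its marker list, and no list of another class, had at least 3 UMIs of 2 genes and a one-sided Poisson p under 0.001 against free RNA, the profile of barcodes with 100 or fewer UMIs. Barcodes of several classes (191) were left out, and no other doublet caller was run. Counts summed per class and library (20 cells or more, 2 libraries per group or more) were tested with edgeR 4.0.16 (quasi-likelihood, TMM scaling, filterByExpr) in R 4.3.3, called at an adjusted p of 0.05, and checked on simulated data. SE came from each change and its F value (change over root F). Free RNA shares were estimated from genes of other classes. Folds against groups at 0 use a floor of 3 counts over the group, and counting intervals are exact at 95%. Shares of cells were compared by a two-sided exact permutation test over libraries, after thinning to 1000 UMIs. Alternatives included DESeq2 1.42.0, other gates and depths, and leaving out each library.

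Genes named beside the members were the 3 most correlated with each, and per list and class the 3 passing genes with the largest changes. Pglyrp1 was named after its value was seen.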

Additional observations from a re-analysis of the deposited data

Results flagged for a closer look

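Trem3 moved apart in different classes. The difference of mean levels, rhabdomyolysis minus control, was 31.0 CPM in macrophages and 23.8 CPM in dendritic cells, against -123 CPM in monocytes. These classes were listed because the groups did not overlap in them, so the separation is the rule of listing. The monocyte fit for Trem3 missed the threshold, and its sign changed without control replicate 1. Rhabdomyolysis monocytes were mostly classical and control ones mostly nonclassical, and the groups overlapped in Trem3 within nonclassical cells. The part of the subtypes was not tested. Dendritic cells held too few Trem3 UMIs for the filter on low counts. These differences between classes were not tested.

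Tyrobp was higher by 746 CPM in rhabdomyolysis dendritic cells and by 221 CPM in rhabdomyolysis T cells. It was lower in rhabdomyolysis NK cells (-1225 CPM). These classes too were listed because the groups did not overlap in them. With free RNA subtracted, Tyrobp in T cells no longer passed the filter on low counts. In NK cells the main fit missed the threshold. These differences between classes were not tested.

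Barcodes outside the classes carried the same genes. Only genes with every rhabdomyolysis library above every control library are given here. In barcodes that passed the filters but fell in no gate, mean levels in rhabdomyolysis and control libraries (SD, n = 3) were 123 ± 35.3 and 0.269 ± 0.466 CPM for Trem1, 126 ± 35.8 and 41.5 ± 10.8 CPM for Trem2, 40.8 ± 0.874 and 0.213 ± 0.369 CPM for Trem3, and 3437 ± 389 and 2101 ± 96.1 CPM for Tyrobp. In the Malat1-poor barcodes that were left out, they were 36.6 ± 9.47 and 0 CPM for Trem1, 144 ± 46.0 and 57.7 ± 14.2 CPM for Trem2, 17.6 ± 5.07 and 0.0816 ± 0.141 CPM for Trem3, and 4569 ± 592 and 3609 ± 84.7 CPM for Tyrobp.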

How the results depend on the processing

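Trem1, Trem2 and Trem3 in macrophages kept direction and call in all 16 alternatives, and all 5 genes did in mononuclear phagocytes and in all gated cells. The joined classes also move with the makeup of a library, which these alternatives do not remove. Tyrobp in macrophages (0.40) crossed the threshold with DESeq2 (0.44, adjusted p = 0.0416), a gate at 1e-06 (0.41), barcodes of 1000 UMIs or more (0.43), no Malat1 filter (0.68) and no very deep barcodes (0.42), and ranged from 0.32 to 0.52 with single libraries left out, past the threshold without rhabdomyolysis replicate 2 (0.45, adjusted p = 0.0265) or 3 (0.52, adjusted p = 0.0140). In monocytes the count of called members, 3, ranged from 0 to 3 with single libraries left out (Trem1 2.52 to 4.404, Trem2 1.498 to 1.78), where the fit without control replicate 1 or 2 assumes that the lone control varies like the others. Library totals gave -0.10 for Tyrobp in monocytes and 1 called member in NK cells. In T cells the count of called members, 2, was 4 with no filter, 1 with a gate at 1e-06 or against 0.5 of the free RNA, 0 with free RNA subtracted and 1 to 2 with single libraries left out. In B cells it was 3 with no filter and 0 to 1 with single libraries left out. Each dendritic cell call, made at the 10-cell minimum, had 1 alternative. No dendritic cell fit was made with single libraries left out or with free RNA subtracted. The macrophage minus NK difference in Tyrobp (0.69) was 0.88 with library totals, 1.13 with 10 cells as the minimum, and 0.37 to 1.08 with single libraries left out. The Trem1 share difference in macrophages, 9.55 percentage points, was 3.48 at 500 UMIs and 40.3 unthinned, and that of Trem2, 5.79, was 26.7 unthinned. The mean odds ratio of Trem1 and Trem2, 0.634, was 1.59 unthinned. Uncalled values that reversed were Trem3 in monocytes (-1.15 to 0.052 with single libraries left out, positive without control replicate 1), Trem2 between monocytes and macrophages (-0.0060 to 0.72, negative without rhabdomyolysis replicate 3), and Tyrobp between them with no Malat1 filter (-0.11). Except where values show it, the cause was not tested.

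Library totals in place of TMM moved the split of called genes: from 537 higher and 359 lower to 300 and 514 in monocytes, from 161 and 104 to 85 and 187 in NK cells, from 417 and 300 to 313 and 579 in T cells, and from 2781 and 2601 to 1800 and 3987 over all gated cells.

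Replicate numbers were not stated to pair libraries. Deviations of same-numbered libraries correlated at 0.0715, 0.171 and 0.0631 in macrophages, and each library correlated best with its own number, as a hint from the data only. With the replicate block Treml4 in macrophages was -1.16 (adjusted p = 0.0729). Control monocytes and neutrophils, with 13 to 21 and 9 to 11 cells per library, limit what can be seen.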
